A study of Homo sapiens with 6 samples.

Results

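The aminoacyl-tRNA synthetases and the scaffold proteins that hold some of them together were followed through an OBF1 knockdown in Raji cells. The 38 genes were taken from a list of names and matched by symbol to the numeric gene identifiers of the count table, and all 38 had a row among its 23459. They comprise 19 cytosolic enzymes or enzyme chains, 16 mitochondrial enzymes (names ending in 2) and 3 scaffold proteins, AIMP1, AIMP2 and EEF1E1. The list does not cover every amino acid in both compartments. Raji is an established line of Burkitt's lymphoma, a tumour of germinal centre B cells. Every library came from cells exposed to a lentiviral short hairpin RNA (shRNA) vector for 5 days and then kept for 7 days in 3 μg/ml puromycin. The control cells carried the non-targeting hairpin SHC002 (3 libraries). The knockdown cells carried OBF1sh1, a single hairpin against OBF1, the B cell coactivator encoded by POU2AF1 that works with the Oct factors (3 libraries). Both are selected pools of cells. Whether replicate libraries stem from different cultures is not in the labels, so every p-value reflects library-to-library spread that may be technical.

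Aminoacyl-tRNA synthetases join each amino acid to its transfer RNA and so set the meaning of the genetic code. Most amino acids have a cytosolic enzyme, which feeds the ribosomes of the cell body, and a separate mitochondrial enzyme, which feeds translation of the few proteins encoded in mitochondrial DNA; both are nuclear genes. GARS1 and KARS1 each make both forms. Several cytosolic enzymes sit in a multisynthetase complex around the scaffold proteins. When amino acids run short, the kinase GCN2 (EIF2AK4) raises translation of the transcription factor ATF4, which is known to induce many cytosolic synthetase genes.

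Each library held between 29569281 and 32612429 counts, and no library stood apart, with Spearman correlations of 0.999 within groups. POU2AF1 was 2.12-fold lower in OBF1 shRNA libraries, which checks the labels (edgeR adjusted p = 1.25e-17). The 6 listed B cell markers summed to between 2460 and 2530 CPM (counts per 1000000 of the library size after TMM scaling, which corrects for composition) in control libraries, and to between 4120 and 4180 CPM after knockdown. MS4A1 alone went from 702 to 2078 CPM, and CD79B was lower, at 664 against 610 CPM. Markers of other cells were close to 0. The list for T and NK cells (4 of 10 genes at 0) summed to between 0.192 and 0.268 CPM in control and to between 0.879 and 1.02 CPM after knockdown. The myeloid list (2 of 10 at 0) reached at most 3.90 CPM, and that for 293T cells, which packaged the virus, at most 0.506 CPM (3 of 8 at 0). The 5 germinal centre markers summed to between 777 and 794 CPM in control and to between 499 and 505 CPM after knockdown; 4 of them fell, and RGS13 rose 2.78-fold. The part of these shifts in the synthetase values was not tested. In bulk RNA, a change in all cells and a change in the share of some cells cannot be told apart.

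The cytosolic enzymes divided into genes that fell and genes that rose, whereas most mitochondrial enzymes rose slightly. All 38 members passed the low-count filter. By the quasi-likelihood test of edgeR, 19 rose and 15 fell in the knockdown at an adjusted p under 0.05 (Benjamini-Hochberg), and 4 were not called. Among all 12010 genes tested, 37.5% were called higher and 37.9% lower, 75.4% together. The groups did not overlap for 33 of the 38 members, beside 76.6% of all genes tested. Among the cytosolic enzymes, 12 fell and 7 rose (median log2 fold change -0.28). Among the mitochondrial enzymes, 11 rose, 2 fell and 3 were not called, with a median of 0.17, and with library sizes alone, a scaling without a composition factor, 6 rose and 2 fell. The median over all genes tested was -0.01. Only 5 members were called with a change of at least 1.5-fold, 4 lower and 1 higher, all cytosolic; 10.4% of all genes tested were lower and 12.9% higher by that much.

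**Figure D1:**
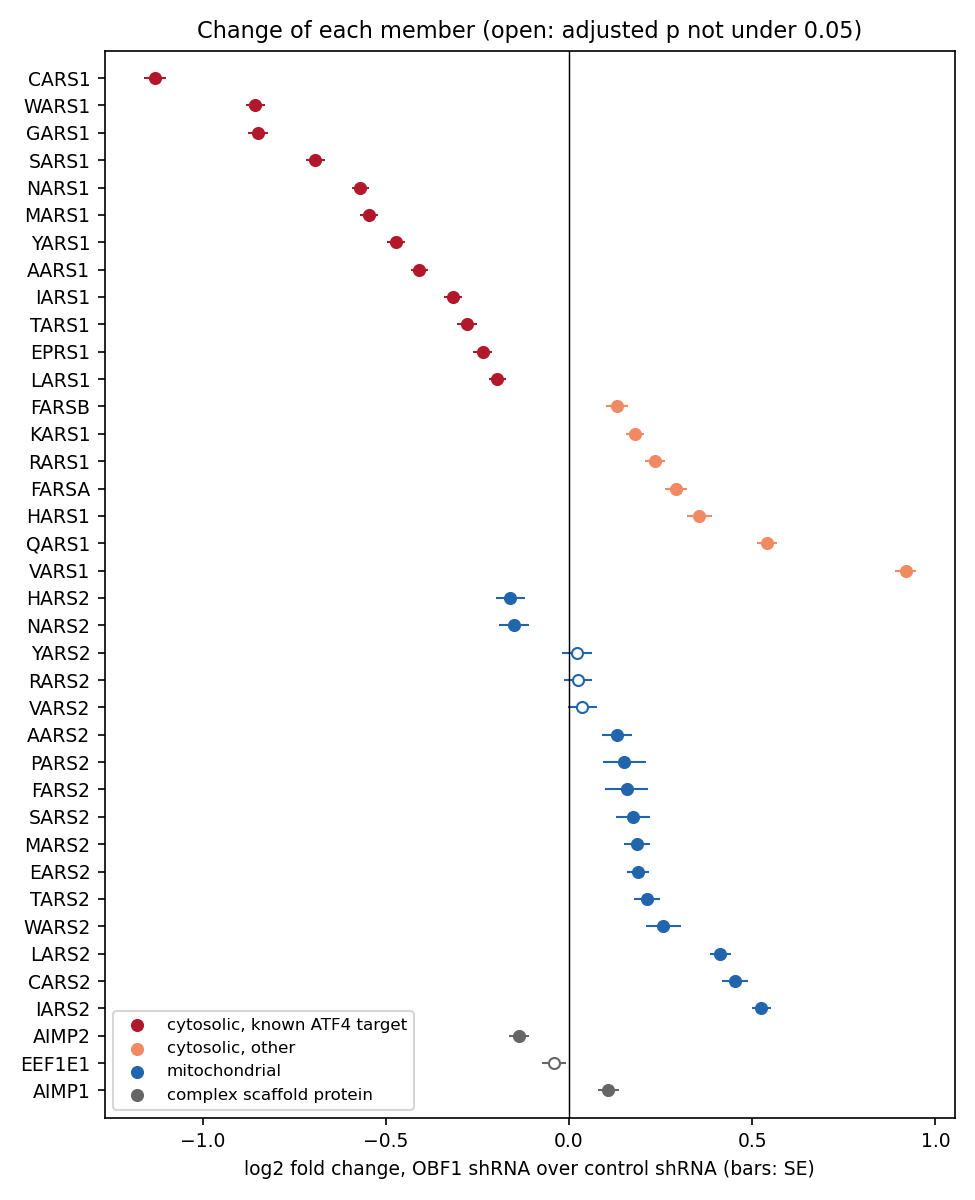
Log2 fold change of each of the 38 members in OBF1 shRNA over control shRNA libraries (x axis, bars are standard errors, n = 3 per group), in 4 colours for cytosolic enzymes known as ATF4 targets, other cytosolic enzymes, mitochondrial enzymes and scaffold proteins. The 12 genes of the first colour lie below 0, from -1.13 for CARS1 to -0.20 for LARS1, the 7 other cytosolic genes lie above 0, and open circles mark the 4 genes that did not pass the test.

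The cytosolic enzymes that fell were the 12 listed as known ATF4 targets. That list, taken from general knowledge of the pathway, held AARS1, CARS1, EPRS1, GARS1, IARS1, LARS1, MARS1, NARS1, SARS1, TARS1, WARS1 and YARS1. It was drawn up with earlier results of these data known. Its match with the genes that fell is thus a description and not a test. All 12 were called lower, beside 37.9% of all genes tested, and their median log2 fold change was -0.51. CARS1, which charges tRNA with cysteine, fell the most. It held 129, 131 and 131 CPM in the control libraries and 59.0, 59.4 and 60.3 CPM in the OBF1 shRNA libraries. The knockdown libraries were thus all low and close to each other, and the groups lay far apart (2.19-fold lower, log2 fold change -1.13, SE 0.03, edgeR adjusted p = 3.24e-16).

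WARS1, the tryptophan enzyme, stood at 559, 567 and 584 CPM in control libraries and at 317, 317 and 311 CPM after knockdown. GARS1, the glycine enzyme of both compartments, went from 934, 978 and 973 CPM to 518, 542 and 541 CPM. Both genes had their 3 knockdown libraries below every control library. WARS1 was 1.81-fold lower (log2 fold change -0.86, SE 0.03, edgeR adjusted p = 1.1e-15) and GARS1 1.80-fold lower (log2 fold change -0.85, SE 0.03, edgeR adjusted p = 3.02e-15). SARS1, the serine enzyme, which also charges the tRNA for selenocysteine, had 308, 320 and 318 CPM in control and 196, 191 and 198 CPM after knockdown. It was 1.62-fold lower (log2 fold change -0.69, SE 0.03, edgeR adjusted p = 5.43e-14), and no OBF1 shRNA library reached a control library.

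The remaining 8 fell by less than 1.5-fold, and their groups did not overlap either. NARS1, the asparagine enzyme, held 496, 495 and 493 CPM in control and 336, 332 and 332 CPM after knockdown, 1.48-fold lower. MARS1, which charges methionine for both initiation and elongation, went from 390.1 ± 2.11 to 267 ± 2.40 CPM (SD, n = 3), 1.46-fold lower. YARS1 (tyrosine) was 1.39-fold lower and AARS1 (alanine) 1.33-fold lower. The smallest falls were those of IARS1 (isoleucine, 1.25-fold), TARS1 (threonine, 1.21-fold), EPRS1 (1.18-fold) and LARS1 (leucine, 1.15-fold). EPRS1 joins the glutamate and proline enzymes in 1 chain. LARS1, which also senses leucine for mTOR, had 399, 402 and 404 CPM in control and 347, 353 and 352 CPM after knockdown; the gap is small but exceeds the spread within each group (log2 fold change -0.20, SE 0.02, edgeR adjusted p = 5.54e-07).

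Because these genes moved together, their promoters were searched for the core of the C/EBP-ATF response element (CARE), TGATGNAA on either strand, the kind of site at which ATF4 binds with its C/EBP partners. Windows from 250 bases before to 50 bases after a transcription start were taken from RefSeq (GRCh38.p14) and matched by gene identifier. A window was there for 33 of the 38 members. LARS1, VARS1, YARS1, AARS2 and VARS2 had no entry. The core occurred in 7 of the 10 falling cytosolic genes with a window, in 0 of the 6 rising ones, in 1 of 14 mitochondrial genes and in none of the 3 scaffold genes. Over all 27305 genes with a window, 4.46% held it. The falling cytosolic genes are those listed as known ATF4 targets, so these counts are a description and not an independent test. EPRS1, SARS1 and WARS1 fell and had a window without the core, and SARS1 and WARS1 were among the genes that fell at least 1.5-fold. Windows of the members that held the core are printed to show its letters. Each line has 30 bases on the strand of the gene, with the core in capitals.
AARS1: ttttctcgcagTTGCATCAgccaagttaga
CARS1: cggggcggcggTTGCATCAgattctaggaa
GARS1: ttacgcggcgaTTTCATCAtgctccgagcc
IARS1: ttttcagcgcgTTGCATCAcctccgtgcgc
MARS1: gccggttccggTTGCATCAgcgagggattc
NARS1: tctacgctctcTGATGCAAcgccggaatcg
TARS1: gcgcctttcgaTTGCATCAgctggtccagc
YARS2: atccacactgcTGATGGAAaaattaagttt

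The letters TTGCATCA, or their reverse complement TGATGCAA in NARS1, recurred in 6 of these promoters, all of genes that fell, while 1.08% of all genes with a window held that exact form. The AARS1 window is chr16:70289675-70289704 (minus strand), with the core starting 187 bases before the transcription start. The cores of CARS1 (chr11:3057407-3057436, minus strand), IARS1 (chr9:92293692-92293721, minus strand) and MARS1 (chr12:57488053-57488082, plus strand) started 2, 13 and 4 bases before it. The core of GARS1 (chr7:30594834-30594863, plus strand) started 33 bases before it. In TARS1 (chr5:33440956-33440985, plus strand) and NARS1 (chr18:57621804-57621833, minus strand) the core started at the 3rd and 15th base of the transcript. CARS1, GARS1 and TARS1 had windows for 2 starts each, and the core was not in both. Which start these cells use was not measured. YARS2, the mitochondrial tyrosine enzyme, held a variant core 197 bases before its start (chr12:32756076-32756105, minus strand), and its level was 39.7 ± 0.856 CPM in control and 40.3 ± 1.13 CPM after knockdown (SD, n = 3, not called). The octamer ATGCAAAT, the sequence that Oct factors bind together with OBF1, occurred in 0 of the 33 member windows and in 2.19% of all genes with a window. A match describes letters and not a site in use, and none of these windows was measured for binding here.

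The 7 other cytosolic genes all rose, beside 37.5% of all genes tested, by a median log2 fold change of 0.29. They are the cytosolic genes that the ATF4 list left over, and that list was drawn up with earlier results known. Their shared direction is thus a description and not a test. With library sizes alone FARSB lost its call (edgeR adjusted p = 0.494, lowest over the alternatives 1.94e-05) and 6 of the 7 stayed higher. VARS1, the valine enzyme, which associates with elongation factor 1, was the only member that rose at least 1.5-fold. Its level was 121, 124 and 120.1 CPM in control and 230.5, 223 and 237 CPM after knockdown. These groups were widely separated (1.89-fold higher, log2 fold change 0.92, SE 0.03, edgeR adjusted p = 3.02e-15). QARS1, the glutamine enzyme of the multisynthetase complex, followed at 262, 274 and 263 CPM in control and 400.3, 376 and 386 CPM after knockdown. It was 1.45-fold higher, with every knockdown library above every control library (edgeR adjusted p = 5.67e-12).

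HARS1 (histidine) was 1.28-fold higher and RARS1 (arginine) 1.18-fold higher. FARSA and FARSB, the alpha and beta chains of the phenylalanine enzyme, were 1.22-fold and 1.10-fold higher. KARS1, the lysine enzyme of both compartments, was 1.13-fold higher, at 364 ± 7.24 CPM in control and 412 ± 5.47 CPM after knockdown (SD, n = 3). FARSB marked the lower end of this group, with 166, 166 and 169 CPM in control and 178, 180.2 and 191 CPM after knockdown, so its gain came close to the spread of the knockdown libraries.

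**Figure D2:**
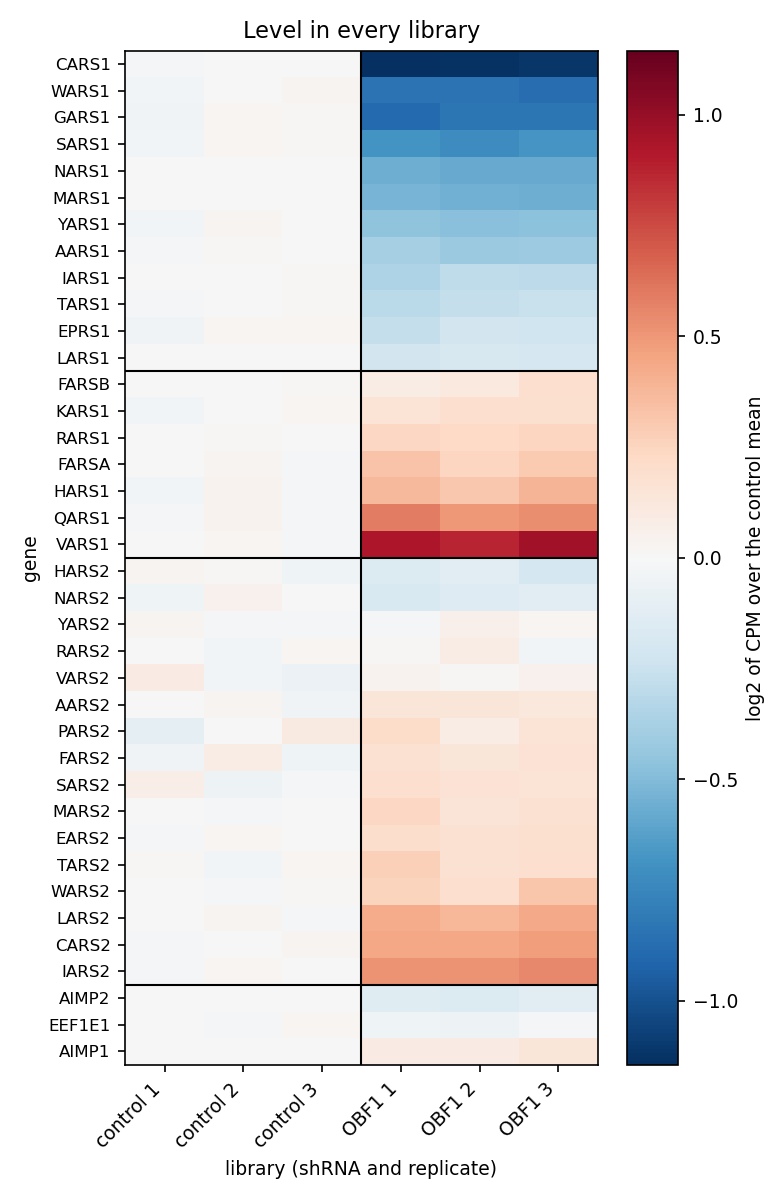
Level of each member (rows) in each of the 6 libraries (columns), as log2 of CPM over the mean of the 3 control libraries; blue is lower and red higher, and black lines separate the gene groups and the shRNAs. Within each shRNA the 3 columns look alike, with CARS1 the darkest blue row at a log2 fold change of -1.13 and VARS1 the darkest red row at 0.92.

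Neither the structural class of the enzymes nor the multisynthetase complex divided the cytosolic genes by direction. Class I enzymes, whose catalytic domain is a Rossmann fold, gave 3 higher and 6 lower of 9 cytosolic genes. Class II enzymes, built on an antiparallel sheet, gave 4 higher and 5 lower of 9; EPRS1 holds a part of each class. Of the 7 listed enzymes of the complex, QARS1, RARS1 and KARS1 rose and EPRS1, IARS1, LARS1 and MARS1 fell. The 4 genes that fell at least 1.5-fold belonged to the 12 enzymes outside the complex.

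The scaffold proteins of the complex moved little. AIMP2, which anchors the complex, had 168, 168 and 167 CPM in control and 153, 151 and 155 CPM after knockdown. It was 1.10-fold lower without overlap (edgeR adjusted p = 0.00013). AIMP1, also known as the precursor of the cytokine EMAP II, was called 1.08-fold higher, at 109 ± 0.608 against 117 ± 2.00 CPM (SD, n = 3, edgeR adjusted p = 0.00289), but with library sizes alone the direction turned (log2 fold change -0.0027, edgeR adjusted p = 0.937, lowest over the alternatives 0.0021). EEF1E1, also called AIMP3, was at 79.6 ± 1.05 and 77.3 ± 1.15 CPM (SD, n = 3) and was not called (log2 fold change -0.04, SE 0.03), whereas with library sizes alone it was called lower (edgeR adjusted p = 0.000394, highest over the alternatives 0.544).

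Among the mitochondrial enzymes, those for isoleucine, cysteine and leucine rose the most. IARS2 held 223, 230.2 and 226 CPM in control and 322, 324 and 330.3 CPM after knockdown. It was 1.44-fold higher (log2 fold change 0.52, SE 0.03, edgeR adjusted p = 1.62e-12), with a gap much wider than the spread in either group. CARS2, which also makes cysteine persulfide, went from 53.6, 54.0 and 55.4 CPM to 73.8, 73.65 and 75.5 CPM, 1.37-fold higher. LARS2 went from 129, 132 and 127 CPM to 173, 168 and 175 CPM, 1.33-fold higher. In all 3 genes the lowest knockdown library exceeded the highest control library.

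The other mitochondrial gains were between 1.09-fold and 1.20-fold. They covered WARS2 (tryptophan, 1.20-fold), TARS2 (threonine, 1.16-fold), EARS2 (glutamate, 1.14-fold), MARS2 (methionine, 1.14-fold), SARS2 (serine, 1.13-fold), FARS2 (phenylalanine, 1.12-fold), PARS2 (proline, 1.11-fold) and AARS2 (alanine, 1.09-fold). With library sizes alone, AARS2, FARS2, MARS2, PARS2 and SARS2 lost their calls. The PARS2 libraries overlapped, at 19.015, 20.4 and 22.0 CPM in control and 23.7, 21.7 and 22.9 CPM after knockdown. The FARS2 call (edgeR adjusted p = 0.0236) was also lost with DESeq2 (adjusted p = 0.0708) and without control replicate 1 (0.0722), control replicate 3 (0.0743), OBF1 shRNA replicate 1 (0.0561) or OBF1 shRNA replicate 3 (0.0531). The PARS2 call (edgeR adjusted p = 0.0291) was lost with DESeq2 (adjusted p = 0.062), upper-quartile scaling (0.0534) and the replicate block (0.0509), and in edgeR without control replicate 1 (0.149), OBF1 shRNA replicate 1 (0.113) or OBF1 shRNA replicate 3 (0.0549). Over all alternatives the adjusted p ranged from 0.00613 to 0.464 for FARS2 and from 0.00653 to 0.528 for PARS2, with the test against 1.5-fold left aside.

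HARS2 and NARS2 were the mitochondrial genes that fell. HARS2, the histidine enzyme, had 54.5, 53.8 and 51.4 CPM in control and 47.7, 48.9 and 46.4 CPM after knockdown, 1.12-fold lower (edgeR adjusted p = 0.00142). NARS2, the asparagine enzyme, went from 49.3 ± 1.67 to 44.4 ± 0.869 CPM (SD, n = 3), 1.11-fold lower (edgeR adjusted p = 0.00253). Neither group of libraries overlapped its counterpart. The genes not called were RARS2, VARS2 and YARS2. RARS2 had a log2 fold change of 0.02 (SE 0.04), VARS2 of 0.04 (SE 0.04) and YARS2 of 0.02 (SE 0.04), all with overlapping libraries.

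Comparing the cytosolic and mitochondrial enzyme of the same amino acid, the balance moved away from the cytosolic enzyme in most cases. There were 17 such gene pairs, which share EPRS1 (glutamate and proline) and FARS2 (for both phenylalanine chains). In 10 pairs the cytosolic gene fell while the mitochondrial gene rose, and in 6 with library sizes alone, where AARS2, MARS2, PARS2 and SARS2 lost their calls. In 2 pairs both rose, in 1 both fell, in 1 the cytosolic gene rose and the mitochondrial gene fell, and in 3 the mitochondrial gene was not called. The log2 ratio of cytosolic to mitochondrial CPM was lower in all OBF1 shRNA libraries than in all control libraries for 12 pairs, and higher for 4. For FARSB with FARS2 the libraries overlapped, with a change of -0.03.

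The cysteine pair shifted furthest: log2 of CARS1 over CARS2 was 1.27, 1.28 and 1.24 in control and -0.32, -0.31 and -0.33 in OBF1 shRNA libraries, a change of -1.58. The tryptophan pair changed by -1.11, the serine pair by -0.87 and the isoleucine pair by -0.84. In the opposite direction, the valine pair changed by 0.88 and the histidine pair by 0.52. For each of the 16 pairs without overlap the exact two-sided permutation p was 0.1 (adjusted over the 17 pairs, p = 0.106), the smallest that 3 libraries against 3 can give, so no pair could pass a threshold of 0.05.

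**Figure D3:**
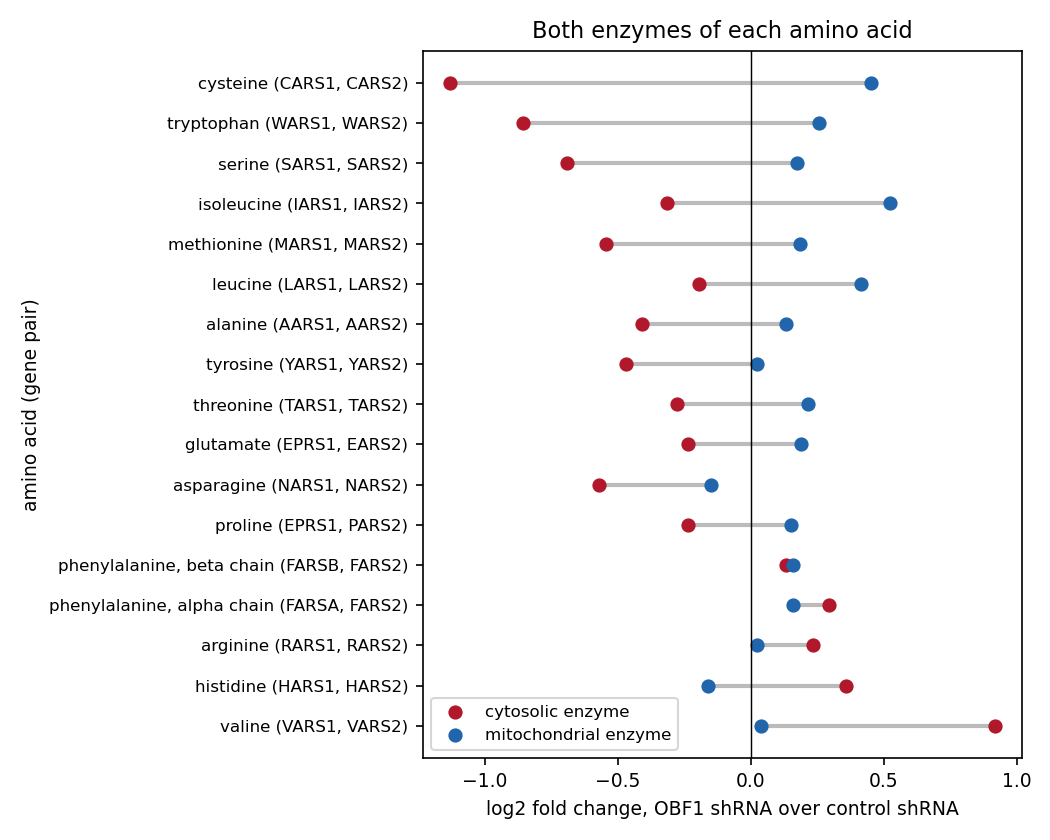
Log2 fold change (x axis) of the cytosolic enzyme (red) and the mitochondrial enzyme (blue) for each of the 17 gene pairs (y axis), ordered by the change in their ratio; grey lines join the 2 enzymes of a pair. Red points lie left of blue ones in the upper rows, most widely for cysteine at -1.13 and 0.45, and right of them for valine, histidine, arginine and the phenylalanine alpha chain.

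HARS1 and HARS2 are neighbouring genes known to be transcribed in opposite directions from a shared promoter region, and their transcripts moved in opposite directions, 1.28-fold higher and 1.12-fold lower. The log2 ratio of HARS1 to HARS2 was 0.44, 0.53 and 0.54 in control and 1.03, 0.94 and 1.09 in OBF1 shRNA libraries, with no overlap.

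Levels between genes were compared as RPKM, the CPM divided by the deposited gene length in kilobases. VARS1 and VARS2 were left out of this, because their deposited lengths, 26707 and 37702 bases, are 6.19 and 9.26 times those of their longest GENCODE transcripts; for the other members the ratio lay between 0.734 and 2.6. In control libraries the median level was 85.8 RPKM over 18 cytosolic and 19.4 RPKM over 15 mitochondrial enzymes. The order of genes rests on the deposited lengths. For SARS1, MARS1 and YARS1 these were 2.6, 1.65 and 1.63 times the longest transcripts, so these genes may rank too low. By deposited length GARS1 was the most abundant, at 349.8 ± 8.82 RPKM (SD, n = 3). It was followed by WARS1 at 170.1 ± 3.87 and NARS1 at 166 ± 0.484 RPKM, whose libraries overlapped. Then came EPRS1 (151 RPKM), KARS1 (142 RPKM) and AARS1 (138 RPKM), the last pair not distinct. HARS1 was the least abundant cytosolic gene at 18.4 ± 0.481 RPKM, close to its mitochondrial partner HARS2 at 17.8 ± 0.561 RPKM (SD, n = 3).

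The mitochondrial enzymes ran from IARS2, at 63.7 ± 1.07 RPKM (SD, n = 3), down to WARS2 and FARS2, at 7.26 and 7.25 RPKM, which were not distinct. In the knockdown GARS1 stayed first at 194 ± 4.92 RPKM, and KARS1, at 160.3 ± 2.13 RPKM, came second (SD, n = 3). CARS1 fell below its mitochondrial partner, from 42.0 ± 0.349 against 20.9 ± 0.368 RPKM for CARS2 in control to 19.2 ± 0.209 against 28.6 ± 0.394 RPKM in OBF1 shRNA libraries (SD, n = 3). IARS1 and IARS2, at 111 and 63.7 RPKM in control libraries, came to 89.4 ± 2.01 and 91.7 ± 1.20 RPKM (SD, n = 3). Their deposited lengths were 1.3 and 0.997 times the longest transcripts, so the closeness of these levels depends on the lengths used.

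Summed over genes, the TMM-scaled CPM of the cytosolic enzymes was lower in the knockdown libraries and that of the mitochondrial enzymes higher. GARS1 and KARS1, which make both forms, were counted as cytosolic. The cytosolic sum was 7169, 7350 and 7327 CPM in control and 5822, 5851 and 5890 CPM after knockdown. The mitochondrial sum was 1032, 1036 and 1026 CPM in control and 1238, 1225 and 1240.5 CPM after knockdown. Most of this rise came from IARS2 (mean 226 to 325 CPM), LARS2 (129 to 172 CPM) and CARS2 (54.3 to 74.3 CPM). Of the 16 mitochondrial genes, 2 were called lower and 3 were not called. The cytosolic sum was 6.95, 7.10 and 7.14 times the mitochondrial one in control and 4.70, 4.78 and 4.75 times in OBF1 shRNA libraries, so the ranges did not meet. The 12 listed ATF4 targets summed to 5945, 6093 and 6086 CPM in control and 4211, 4272 and 4265 CPM after knockdown, while the 7 others summed to more. Each of the 12 was called lower and each of the 7 higher, and the list was drawn up with earlier results known. The directions of these partial sums thus follow from the split.

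**Figure D4:**
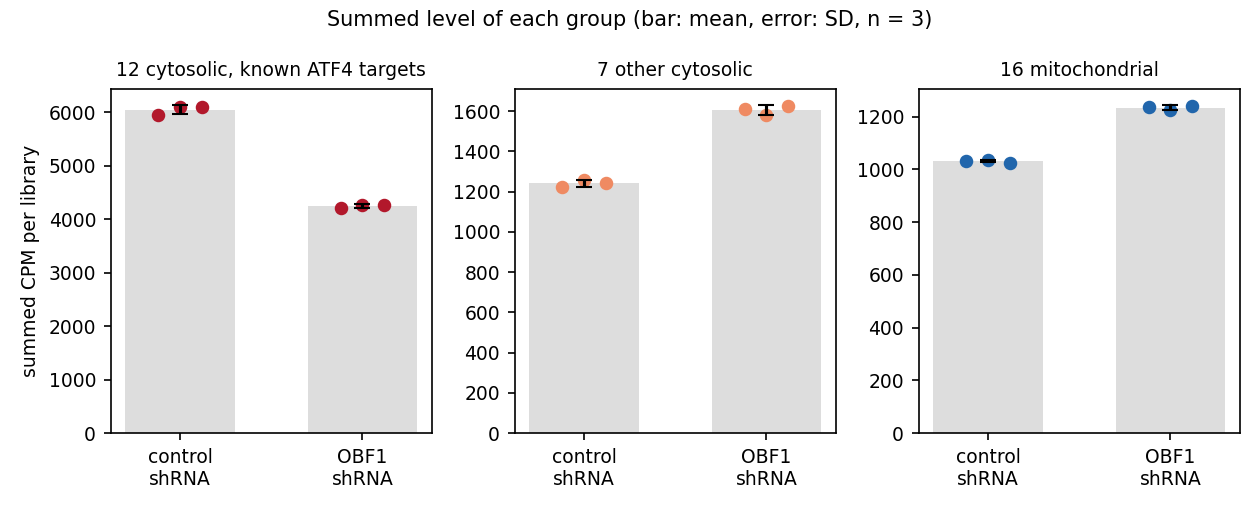
Summed CPM of the 12 cytosolic genes known as ATF4 targets, the 7 other cytosolic genes and the 16 mitochondrial genes (panels, y axes start at 0 and differ in scale) in each library (points), with bars at the mean and error bars of 1 SD (n = 3). The first panel falls from between 5945 and 6093 CPM to between 4211 and 4272 CPM, and the other panels rise without overlap. The cytosolic genes were split by a list made with earlier results known, so the directions of the cytosolic panels follow from the split.

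Other genes of the amino acid shortage response fell with the listed ATF4 targets. Of 14 tested, 13 were lower, each by at least 1.5-fold, and 1, EIF2AK4, was higher; the median log2 fold change was -1.41. Of all genes tested, 37.9% were called lower and 10.4% lower by at least 1.5-fold. ATF4 itself went from 854 to 431 CPM, a log2 fold change of -0.99 (edgeR adjusted p = 1.35e-16). ASNS, which makes asparagine, was 3.94-fold lower and SLC7A11, the cystine importer, 4.91-fold lower. SLC3A2, the heavy chain of amino acid transporters, was 3.50-fold lower and SESN2, a leucine sensor, 3.68-fold lower. EIF2AK4, which encodes GCN2, rose by 0.27, from 33.2 to 40.0 CPM (edgeR adjusted p = 1.54e-05). The part of ATF4 in the synthetase changes was not tested.

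Of the genes that make, export or edit tRNA, XPOT and PSTK were the ones called with a change of at least 1.5-fold, both lower. XPOT, which carries tRNA out of the nucleus, had 532, 533 and 548 CPM in control and 309, 314 and 307 CPM after knockdown. It was 1.73-fold lower (edgeR adjusted p = 2.22e-15), with the groups far apart. Among the 16 genes of tRNA maturation and export, 10 rose and 4 fell, beside 37.5% and 37.9% of all genes tested. With library sizes alone 7 rose and 6 fell, which is near those shares. HSD17B10, a subunit of mitochondrial RNase P, rose 1.35-fold, the tRNA ligase gene RTCB 1.18-fold and ELAC2, which trims the 3′ end of tRNA, 1.18-fold. Of 9 genes that edit or amidate charged tRNA, 2 rose, DTD1 and DTD2, and 3 fell, shares no higher than the 37.5% and 37.9% of all genes tested; with library sizes alone 1 rose and 4 fell. DTD2 and DTD1 encode deacylases that remove wrongly charged amino acids. PSTK and SEPSECS, which turn serine on its tRNA into selenocysteine after SARS1 has charged it, were 1.60-fold and 1.27-fold lower. GATB, of mitochondrial glutaminyl-tRNA synthesis, was called lower (log2 fold change -0.09, edgeR adjusted p = 0.024), a call that 5 of the alternatives lost.

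Of 6 cytosolic factors of elongation tested, 5 rose, beside 37.5% of all genes tested, and EEF2, the translocase, fell 1.21-fold. EEF1B2, an exchange factor of the EEF1 complex, rose 1.44-fold, from 405 ± 8.28 to 584 ± 11.7 CPM (SD, n = 3). EEF1A1, which delivers charged tRNA to the ribosome, rose 1.29-fold and EEF1G, another EEF1 subunit, 1.29-fold. EIF5A, which helps ribosomes past prolines, rose 1.21-fold. Of 8 mitochondrial factors, 5 rose and 1, MTIF2, fell. The calls of MTRF1L and MRRF were lost with DESeq2, upper-quartile factors, library sizes alone, the replicate block or without control replicate 1, which left 3 that rose, the same share as the 37.5% of all genes tested. GFM1, the mitochondrial translocase, rose 1.41-fold and TUFM, the counterpart of EEF1A1, 1.14-fold.

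WARS1 is also known as a gene that interferon gamma induces, and here it moved against other genes of that response. Of 8 interferon gamma genes tested, 8 were called higher, 6 of them at least 1.5-fold, beside 37.5% and 12.9% of all genes tested. Both counts include GBP2, at 0.096, 0.119 and 0.0952 CPM in control and 2.46, 2.95 and 2.81 CPM after knockdown. GBP2 passed the low-count filter only through the knockdown libraries, so its call could only be higher. The listed GBP5 and IDO1 did not pass that filter. IRF1, the weakest (log2 fold change 0.09, libraries overlapping), lost its call in 8 alternatives and had a log2 fold change of -0.02 with library sizes alone. CIITA, the class II transactivator, rose 3.32-fold from 145 ± 1.73 to 480.4 ± 3.23 CPM, and PSMB9, an immunoproteasome subunit, rose 1.85-fold from 61.5 ± 1.15 to 113.7 ± 6.11 CPM (SD, n = 3). TAP1, the peptide transporter, rose 1.67-fold. GBP1, an interferon-induced GTPase, rose 7.13-fold but at a low level, from a mean of 1.06 to 7.57 CPM. WARS1 was 1.81-fold lower. Its promoter window held the core of an interferon-stimulated response element (GAAA, any 2 bases, GAAA, on either strand) 55 bases before 1 of its RefSeq starts (chr14:100375383-100375412, minus strand, GRCh38.p14), as did 4.38% of all genes with a window. Of the 33 members with a window, 2 held this core, and the other was the mitochondrial enzyme EARS2, which rose 1.14-fold. The WARS1 window is printed because WARS1 was the only cytosolic enzyme with a match, and capitals mark the core.
WARS1: tttcagaaggGAAACTGAAAgaaagagggg

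Some members share sequence with a neighbour, and the counting rule for such reads is not given in the sources used here. In RefSeq the spans of MARS1, YARS1, CARS2, EARS2, FARS2, AIMP1 and AIMP2 overlap another protein-coding gene. MARS1 meets DDIT3, an ATF4 target that encodes CHOP and fell from 54.3 ± 2.25 to 12.1 ± 0.474 CPM (SD, n = 3), beside a fall of MARS1 from 390.1 to 267 CPM. CARS1, FARSA, FARS2, LARS2, NARS2 and WARS2 have antisense transcripts. Their part in the values was not tested.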

How the data were processed

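The 6 Raji libraries were made with a stranded mRNA kit, per the labels' protocols. The authors deposited 1 table of raw read counts per gene, and each gene's length. Builds hg19 and mm9 are named in the submitters' processing notes; for the aligner, counting tool, annotation and strand setting, the answer is not given in the sources used here. Symbols came from a RefSeq table of GRCh38.p14, which matched 23308 of 23459 rows; the 151 others held at most 0.138% of the counts of a library. Counts were tested in R 4.3.3 with edgeR 4.0.16 (filterByExpr, min.count 10, min.total.count 15; TMM; glmQLFTest on all 6 libraries without covariates; Benjamini-Hochberg over 12010 genes, threshold 0.05), and the fit was tested on simulated data. In the simulated data far fewer genes changed than here, so they did not test the TMM scaling between the groups. CPM is counts per 1000000 of the TMM-scaled library size. The standard error is the log2 fold change divided by the square root of F. The common biological coefficient of variation was 0.0269. Chi-square per degree of freedom between replicates ranged from 1.88 to 3.26, so none was counted as a duplicate.

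The members, gene lists and tests were chosen with earlier results of these data known. All members are named, with each library's value for those changed at least 1.5-fold and those at the ends of each group, and up to 4 genes with the smallest p of each other list; NARS1, QARS1, CARS2, LARS2, KARS1, MARS1, ATF4, EIF2AK4, DDIT3, EEF2, GATB, MTRF1L, MRRF, MS4A1, CD79B, RGS13 and IRF1 were given values or added for other reasons after their values were seen. The threshold that left VARS1 and VARS2 out of comparisons per length was set after the lengths were seen. Alternatives were DESeq2 1.42.0, limma-voom (limma 3.58.1), RLE and upper-quartile factors, library sizes alone, no filter beyond 1 count in total, a minimum of 1 CPM in at least 3 libraries, replicate numbers as a block, a test against 1.5-fold (glmTreat), and leaving out each library.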

Additional observations from a re-analysis of the deposited data

How the results depend on the processing

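Of the 38 members, 30 kept their direction and side of the threshold, or stayed uncalled, in all 14 alternatives other than the test against 1.5-fold. With library sizes alone the median of all genes moved by -0.11, 6 mitochondrial enzymes were called higher, and the list medians became -0.39 (cytosolic) and 0.057 (mitochondrial); 3476 genes were higher and 5778 lower, against 4508 and 4550. AIMP1 changed sign there (log2 fold change -0.0027). In the test against 1.5-fold, 1967 genes were called in place of 9058, 4 cytosolic enzymes were lower (all 4 listed ATF4 targets) and 1 was higher (1 of the other cytosolic enzymes), and 0 mitochondrial enzymes were called higher and 0 lower. With the replicate block, 8759 genes were called, 12 cytosolic enzymes were lower and 7 higher, and 10 mitochondrial enzymes were higher. The replicate numbers did not pair the libraries: deviations of same-numbered libraries correlated at 0.00979, -0.119 and -0.0639. With a pseudocount of 1 the ratio was lower without overlap in 12 pairs. Without 1 library at a time, between 8632 and 8974 genes were called, 12 cytosolic enzymes were lower and 7 higher, between 9 and 11 mitochondrial enzymes were higher and 2 lower.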

Other observations

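The CARE core was also counted beyond the synthetases, as a description with no test. Of 9514 tested genes with a promoter window, 38.1% were called lower. Of the 250 of these genes that held TGATGNAA, 48.4% were called lower and 37.2% higher, with a median log2 fold change of -0.10. Of the 71 that held the exact form TGATGCAA, 56.3% were called lower and 31% higher, with a median of -0.28; the 6 cytosolic synthetases with that form are among them. Of the 184 tested genes with the octamer ATGCAAAT, 37.0% were called lower and 42.9% higher. TRIB3, a listed gene of the amino acid shortage response, did not pass the count filter.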
